A study of Homo sapiens with 4 samples.

Results

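The oncofetal genes of the liver were followed through RNA sequencing of 4 human hepatoma cultures. The group held 10 genes, picked by symbol: AFP, GPC3, IGF2, H19, DLK1, IGF2BP1, IGF2BP2, IGF2BP3, LIN28B and SALL4. All 10 were found among the 16370 genes listed in any library. Hep3B and Huh7 are established hepatoma lines and form the HCC group (hepatocellular carcinoma). Hep3B-C and Huh7-C are the stem-like cultures raised from those lines and form the HCSC group (hepatic cancer stem cells). The sources used here give no genetic change or drug treatment for any culture, and both parental lines came from a public cell bank. Each culture was sequenced as 1 library, so no difference below has a replicate check. A test of one library against another compares those libraries, not the conditions, and every interval below covers counting error only. The question was which oncofetal genes differ between a stem-like culture and the line it came from.

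Oncofetal genes are active in the fetal liver, and many of them, though not all, fall silent in the adult organ and return in hepatoma. AFP encodes alpha-fetoprotein, the fetal relative of serum albumin and a blood marker of liver cancer, and GPC3 a glypican of the cell surface used in pathology to tell hepatoma from normal liver. IGF2 is a fetal growth factor that shares an imprinted domain with the long noncoding RNA H19, and the 2 genes are expressed from opposite parental copies under common enhancers. DLK1, a membrane protein of the hepatoblast, heads another imprinted domain. LIN28B is an RNA-binding protein that blocks maturation of let-7 microRNAs. The IGF2BP proteins bind IGF2 mRNA among other transcripts, and SALL4 is a zinc-finger factor of embryonic and fetal hepatic cells.

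Libraries held from 2896418 (Hep3B) to 4641927 (Hep3B-C) gene counts, so that 3 counts, the smallest level taken as a floor, equalled 1.04 CPM (counts scaled to 1000000 gene counts) in Hep3B and 0.646 to 0.692 CPM in the other libraries. All 13 hepatocyte markers examined had counts in every library, and their summed level ran from 29610 CPM in Huh7-C to 82096 CPM in Hep3B-C. Markers of fibroblasts, endothelium and leukocytes summed to between 194.6 and 455 CPM, and the leukocyte gene PTPRC had no count in any library. Of these 14 markers, 9 were listed in the Hep3B pair, where CD68 rose from 289 to 1254 counts (a call lost with trends removed) and COL1A2 fell from 6 to 0 (a call lost with TMM). In the Huh7 pair 8 were listed and 2 rose in Huh7-C, PECAM1 from 17 to 93 counts and COL3A1, chosen after its values were seen, from 0 to 58. One library pair went against what its name leads one to look for. Huh7 is known as a line that makes AFP and albumin, yet the library labelled Huh7 held 26 AFP counts and 482 ALB counts, and that labelled Huh7-C held 12 and 1156. The Huh7 libraries are therefore named by label only, and each pair is given by itself throughout.

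In the Hep3B pair, fold changes across genes also moved with base composition. Spearman's correlation across 11338 genes was 0.631 between log2 fold change and GC content and -0.43 with gene length, against -0.059 and 0.31 across 11060 genes of the Huh7 pair. For the genes named below, changes of the Hep3B pair are therefore given as counted and after the trends with GC content and length were removed, the second value being called trend-removed. The median gene stood at -0.68 in Hep3B-C on the log2 scale, and the TMM scaling (which sets the bulk of genes as unchanged) moved every log2 fold change of that pair up by 0.60. In the Huh7 pair the median was 0.066 and TMM moved values by -0.041.

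A gene was called at a false discovery rate (FDR) of at most 0.01 in the Audic-Claverie test, which asks whether a gene's counts differ more than library totals and counting error allow, together with a log2 fold change of at least 1 in size. In Hep3B-C 7 of the 10 oncofetal genes were called lower than in Hep3B (AFP, IGF2, H19, IGF2BP2, IGF2BP3, LIN28B and SALL4), against 30.4% of all 15480 genes of the pair. DLK1 was called higher, against 13.2% of all genes (2043 higher and 4708 lower as counted, 3348 and 2799 with TMM), and GPC3 and IGF2BP1 were not called. With an assumed biological coefficient of variation of 0.4 in place of counting error alone, 2 members stayed called in this pair, IGF2 and SALL4. The median log2 fold change of the members was -1.51, beside -0.68 for all genes. In Huh7-C 1 of 9 listed members, H19, was called lower than in Huh7, against 4.15% of 14807 genes, and none was called higher, against 4.19% of genes. The median of the 9 was 0.04, close to that of all genes. DLK1 was not among the genes listed for the Huh7 pair, whose files listed genes with at least 1 count in either culture.

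**Figure D1:**
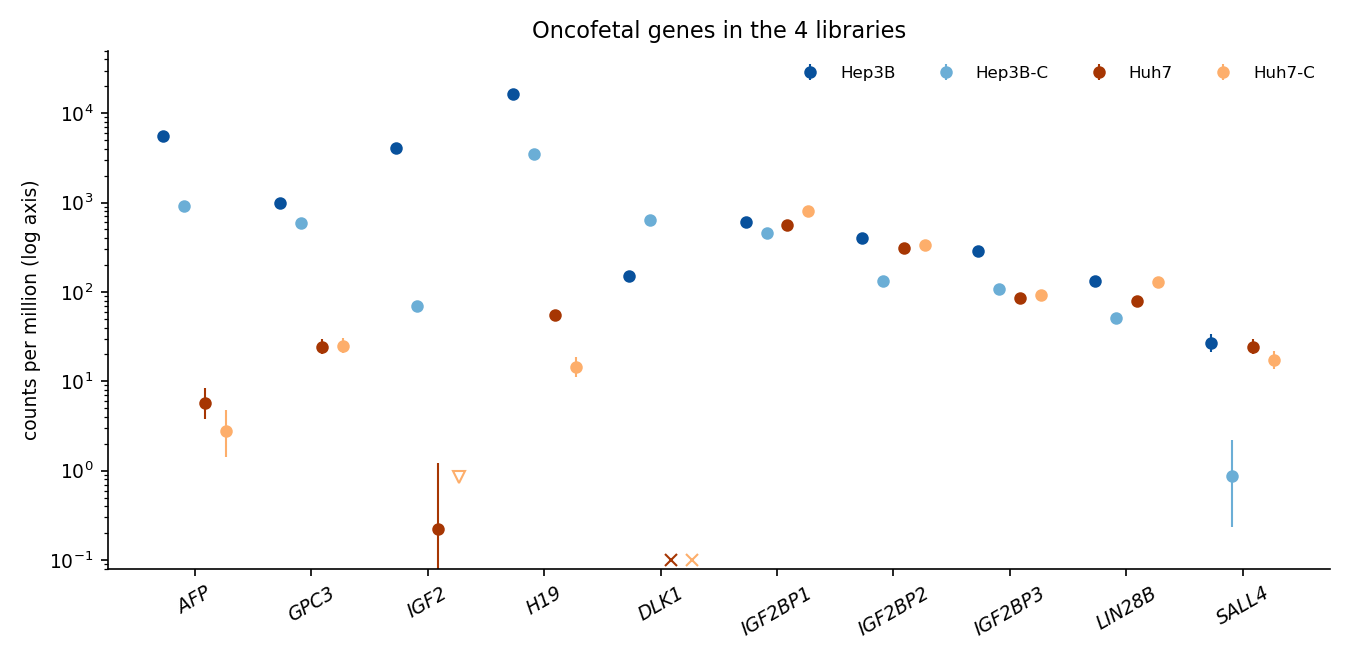
Level of each oncofetal gene in the 4 libraries, as CPM on a log axis, with exact 95% Poisson intervals. Open triangles mark the upper limit where the count was 0, and crosses mark DLK1, not listed for the Huh7 pair. AFP, IGF2, H19 and GPC3 stand 40.7-fold or more above Huh7 in Hep3B, while the IGF2BP genes, LIN28B and SALL4 lie within 3.36-fold of each other in those parental lines.

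Levels separated the members into 2 kinds. AFP, IGF2, H19, GPC3 and DLK1 were marks of the Hep3B libraries. The AFP level of Hep3B was 975-fold that of Huh7 (95% interval 665 to 1492), that of H19 302-fold (267 to 343) and that of GPC3 40.7-fold (33.7 to 49.6). IGF2, with 1 count in Huh7, gave a ratio of 18624 with an interval from 3342 to 735657, and DLK1 was at least 228-fold higher in Hep3B at the floor of 3 counts. The other 5 differed far less between the parental lines, IGF2BP3 the most. Their Hep3B over Huh7 ratios were 1.09 for IGF2BP1, 1.31 for IGF2BP2, 3.36 for IGF2BP3, 1.66 for LIN28B and 1.10 for SALL4, the last with an interval that included 1 (0.813 to 1.48).

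AFP (chr4:73431138-73456174, plus strand, in GENCODE 29 on GRCh38, an annotation newer than the build used for alignment and the source of the gene positions below) was the 10th most counted gene of Hep3B. The parental Hep3B library held 16175 AFP counts (5584 CPM) and the stem-like one 4201 (905 CPM), whereas the Huh7 pair held 26 (5.73 CPM) and 12 (2.77 CPM). AFP was thus 6.17-fold lower in Hep3B-C than in Hep3B (95% interval 5.96 to 6.39), a log2 fold change of -2.63 and -2.07 trend-removed. In Huh7-C the log2 fold change was -1.02, with an FDR of 0.089, and the gene was not called. All neighbours in the order of AFP levels differed beyond counting error, the lowest pair only just (2.07-fold, 1.01 to 4.50).

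ALB, the adult counterpart that lies beside AFP on chromosome 4, did not follow it. ALB had 56598 counts in Hep3B and 85731 in Hep3B-C (log2 fold change -0.08, not called) and rose from 482 to 1156 counts in Huh7-C (log2 1.33). Since both genes were read in the same library, their ratio does not depend on the library total. Per length, AFP stood at 0.316 of ALB in Hep3B and at 0.0541 in Hep3B-C, and in the Huh7 pair at 0.0596 and 0.0115. The ratio was therefore 5.83-fold lower in Hep3B-C and 5.20-fold lower in Huh7-C than in the parental library (6.13-fold and 4.97-fold trend-removed). The 95% intervals did not overlap within either pair, being 0.0385 to 0.0884 in Huh7 and 0.00591 to 0.0201 in Huh7-C. In Huh7-C both genes contributed to the difference, which rested on 12 AFP counts.

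Of 16 genes of the albumin family and known regulators of AFP, 3 were called higher and 7 lower in Hep3B-C. Their median log2 fold change was -0.16, and 13.2% of all genes were called higher and 30.4% lower. Of 15 listed in the Huh7 pair 2 were higher and 1 lower (median -0.30), beside 4.19% and 4.15% of all genes. Trend-removed, the Hep3B pair had 1 higher and 8 lower, beside 689 and 3568 of all 15480 genes. GC, the vitamin D-binding member of the albumin family, fell with AFP from 6167 to 3271 counts (log2 -1.60, trend-removed -1.36), a call lost with TMM. CEBPA, a liver-enriched leucine zipper factor, fell in Huh7-C from 462 to 154 counts (log2 -1.52). ZHX2, a repressor of AFP in the adult mouse liver, was looked at after its values were seen. It fell in Hep3B-C from 471 to 155 counts (log2 -2.28, trend-removed -2.29), in the same direction as AFP.

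**Figure D2:**
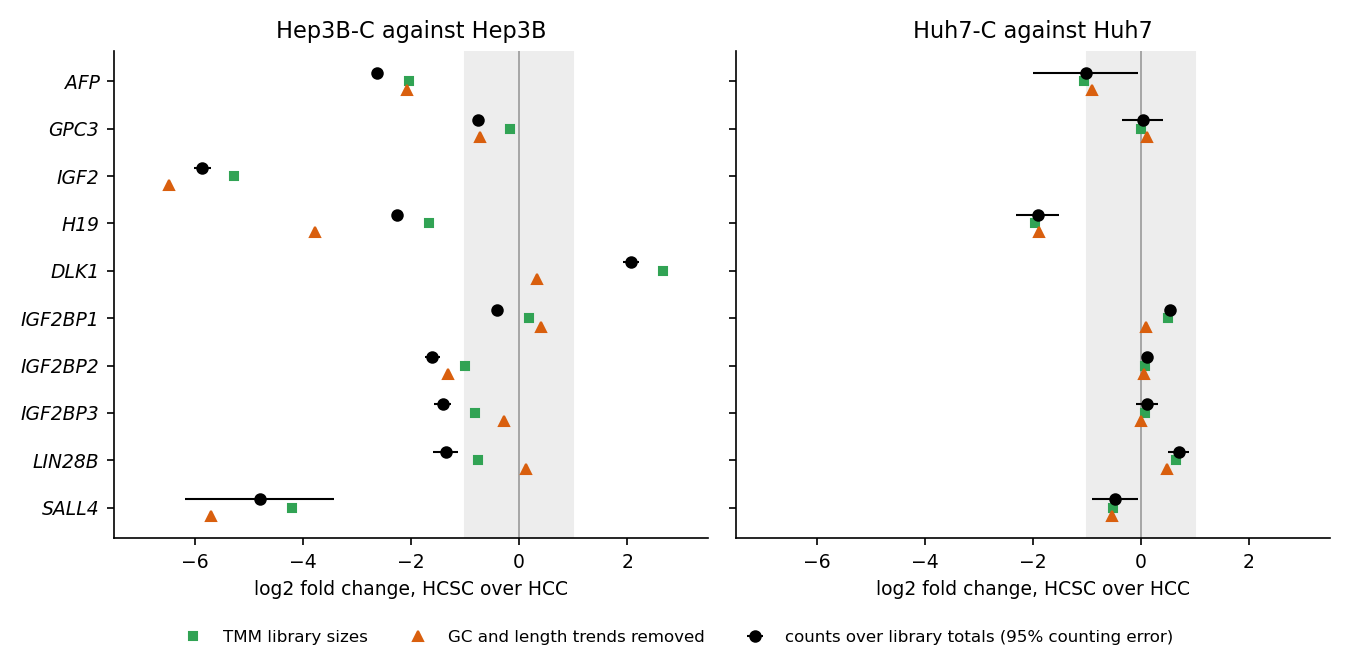
Log2 fold change (HCSC over HCC) of each oncofetal gene in the Hep3B pair (left) and the Huh7 pair (right), as counted (black, bars 95% counting error), with TMM library sizes (green) and trend-removed (orange). The grey band spans -1 to 1. AFP, IGF2, H19 and SALL4 lie left of the band in Hep3B-C on all 3 scales, whereas DLK1, IGF2BP3 and LIN28B enter it when the trends are removed. IGF2, with 1 count in all, and DLK1 are not drawn at right.

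IGF2 gave the largest difference among the members. The library of Hep3B held 11888 IGF2 counts (4104 CPM) and that of Hep3B-C 326 (70.2 CPM), whereas Huh7 held 1 (0.22 CPM) and Huh7-C 0. IGF2 was 58.4-fold lower in Hep3B-C (95% interval 52.3 to 65.4), a log2 fold change of -5.87 and -6.47 trend-removed. It fell from the 16th to the 2655th place in the order of counts. In the Huh7 pair both libraries lay at or under the floor and no fold is given.

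H19 was the second most counted gene of Hep3B. The Hep3B pair held 48007 and 16046 H19 counts (16575 and 3457 CPM, parental library first) and the Huh7 pair 249 and 63 (54.9 and 14.5 CPM). H19 was the member called lower in both HCSC cultures, 4.79-fold in Hep3B-C (95% interval 4.71 to 4.88) and 3.77-fold in Huh7-C (2.85 to 5.06). The log2 fold changes were -2.26 and -1.91 (trend-removed -3.78 and -1.89). The FDR in the Huh7 pair was 2.96e-24.

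Both genes of the imprinted domain thus fell in Hep3B-C, but not in step. Per length, H19 stood at 9.04 times IGF2 in Hep3B (95% interval 8.86 to 9.22) and at 110 times in Hep3B-C (98.7 to 123), a 12.2-fold shift of the ratio towards H19, which was 6.49-fold trend-removed. The ratio in Huh7 was 557 and rested on 1 IGF2 count (99.1 to 22097). IGF2AS, a transcript antisense to IGF2 that was looked at after its values were seen, went from 37 counts in Hep3B to 1 in Hep3B-C. The sources used here do not state whether strand was used in counting, so reads of IGF2AS and IGF2 cannot be told apart where they overlap. No separate entries for INS-IGF2 or MIR675, which share sequence with IGF2 and H19, were found in the files.

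H19 lies at chr11:1995176-2001470 and IGF2 at chr11:2129112-2149603, both on the minus strand. H19 is also the host of miR-675, whose mature arms are shown because they lie within the RNA that fell in both cultures. Capitals mark the seed, bases 2 to 8, in the RefSeq sequences (GRCh38.p14, minus strand, chr11:1996800-1996822 and chr11:1996768-1996787).
miR-675-5p: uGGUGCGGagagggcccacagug
miR-675-3p: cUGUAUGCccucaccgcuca
Counts of H19 RNA do not measure the mature arms, and small RNA was not analysed here.

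DLK1 (chr14:100725705-100738224, plus strand) was the one member called higher in an HCSC culture. It had 437 counts in Hep3B and 2951 in Hep3B-C, or 151 and 636 CPM, 4.21-fold higher (95% interval 3.81 to 4.67). The log2 fold change was 2.07 as counted and 0.33 trend-removed, at which DLK1 was no longer called. With the length trend alone removed it was 1.30 and still called. The GC content of the DLK1 transcript was 61.7%. RTL1, the retrotransposon-derived gene of the same imprinted domain on chromosome 14, was looked at after its values were seen and rose from 3 to 222 counts (log2 5.31, trend-removed 4.55). MEG3, the noncoding RNA that is the maternal partner of DLK1, had 1 and 11 counts and was not called. DLK1 therefore stood at 526 times MEG3 per length in Hep3B (93.9 to 20814) and 323 times in Hep3B-C (180 to 647), intervals that overlap.

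Imprinted genes outside the member list were called in both directions in both pairs. In Hep3B-C 5 of 23 listed rose and 7 fell (median log2 fold change -0.15), beside 13.2% and 30.4% of all genes as counted. Trend-removed 4 rose and 6 fell, beside 689 and 3568 of all 15480 genes. In Huh7-C 2 of 20 rose and 2 fell (median -0.44), beside 4.19% and 4.15% of all genes. KCNQ1OT1, the noncoding RNA that controls the domain next to H19 and is antisense to KCNQ1, fell in Hep3B-C from 1194 to 84 counts (log2 -4.50, trend-removed -1.70), and had 58 and 33 counts in the Huh7 pair (-0.74 and not called, but -2.19 and called trend-removed). CDKN1C, a growth inhibitor of that domain, rose from 128 to 488 counts (1.25, but -0.42 trend-removed and then not called). SLC22A18, a transporter gene of the same domain, fell in Huh7-C from 237 to 112 counts (-1.01, but -0.90 trend-removed and then not called) and rose in Hep3B-C from 22 to 384 (3.41, trend-removed 1.53). PEG10, a retrotransposon-derived gene known to be raised in hepatoma, rose in Huh7-C from 446 to 2138 counts (2.33) and fell in Hep3B-C from 108 to 32 (-2.42, trend-removed -1.28). NAP1L5, chosen after its values were seen, was like H19 called lower in both pairs, with 29 and 12 counts in the Hep3B pair (-1.92, trend-removed -1.53) and 17 and 3 in the Huh7 pair (-2.26, a call lost trend-removed).

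**Figure D3:**
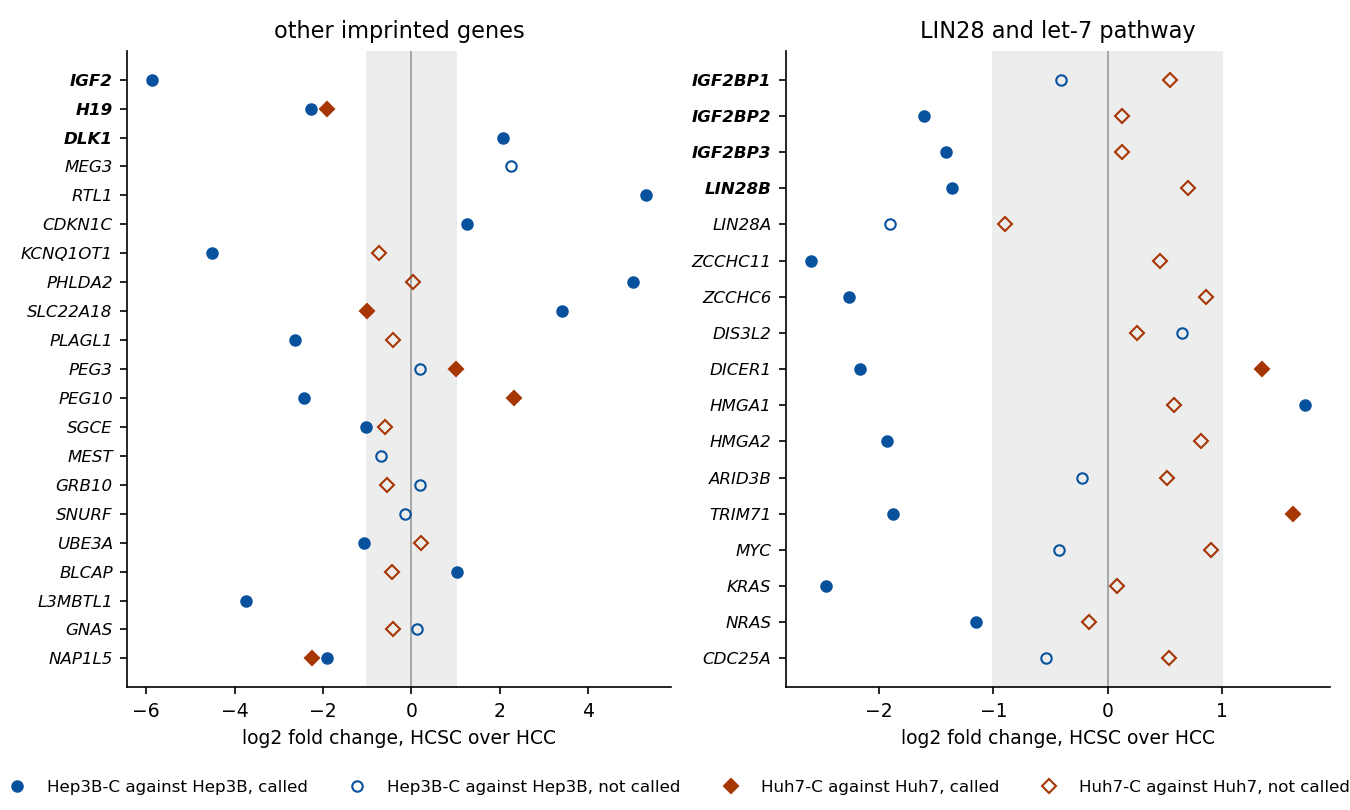
Log2 fold change (HCSC over HCC) of imprinted genes (left) and of the LIN28 and let-7 pathway (right) in the Hep3B pair (circles) and the Huh7 pair (diamonds), for genes with at least 10 counts in the pair. Filled marks were called, the grey band spans -1 to 1 and members of the oncofetal group are in bold. In the right panel most Hep3B marks lie left of 0 and most Huh7 marks right of it. Values are as counted, a scale on which the median of all genes was -0.68 in the Hep3B pair and 0.066 in the Huh7 pair.

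GPC3 (chrX:133535745-133985895, minus strand) was not called in either pair. The Hep3B pair held 2883 and 2719 GPC3 counts (995 and 586 CPM) and the Huh7 pair 111 and 109 (24.5 and 25.2 CPM), the parental library first. Its ratio of HCSC to HCC was 0.588 in the Hep3B pair (95% interval 0.558 to 0.620), less than the fold needed for a call, and 1.03 in the Huh7 pair (0.782 to 1.35). The log2 fold change of -0.76 in Hep3B-C lay next to the median gene of that pair, and was -0.17 with TMM and -0.73 trend-removed. With only the length trend removed it reached -1.07 and was called.

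Against GPC3, AFP was 3.63-fold lower per length in Hep3B-C than in Hep3B (ratios 6.38 and 1.76, 95% intervals 6.13 to 6.64 and 1.67 to 1.84), and 2.54-fold lower trend-removed. In the Huh7 pair the AFP to GPC3 ratio was 0.266 and 0.125, with overlapping intervals. GPC3 also stayed the leading glypican. Per length it held 89.7% and 91.8% of glypican expression in the Hep3B pair and 58.5% and 53.2% in the Huh7 pair. Other glypicans moved around it in Hep3B-C, where GPC6 fell from 806 to 128 counts (log2 -3.33, trend-removed -1.86) and GPC1 rose from 25 to 290 (2.83, trend-removed 1.54). Of the 7 listed glypican and SALL relatives, 1 rose and 3 fell in the Hep3B pair, beside 13.2% and 30.4% of all genes. Their median was -0.96. Trend-removed 1 rose and 3 fell, where 689 and 3568 of all 15480 genes did. None was called in the Huh7 pair (median -0.16), where 4.19% of all genes were called higher and 4.15% lower.

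SALL4 (chr20:51782331-51802520, minus strand) was close to the floor in Hep3B-C. The Hep3B pair held 78 and 4 SALL4 counts (26.9 and 0.862 CPM) and the Huh7 pair 111 and 76 (24.5 and 17.5 CPM). The level in Hep3B-C stood apart from the 3 others. SALL4 was 31.3-fold lower in Hep3B-C than in Hep3B (95% interval 11.7 to 118), a log2 fold change of -4.81 and -5.71 trend-removed, while the log2 fold change in Huh7-C was -0.48 and was not called. SALL4 made up 21.2% of SALL expression per length in Hep3B and 0.573% in Hep3B-C, and 26.7% and 27.1% in the Huh7 pair. SALL2, the relative with the largest share in Hep3B, had 304 and 834 counts and was not called.

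Pluripotency genes, to whose network SALL4 belongs in the embryo, were near the floor. In Hep3B-C 1 of 8 listed was called, SOX2, with 0 counts in Hep3B and 14 in Hep3B-C, and trend-removed SOX2 was not called while POU5F1 (5 and 0 counts) was called lower. Of all genes 13.2% were called higher and 30.4% lower in Hep3B-C. In Huh7-C none of 5 was called, beside 4.19% of all genes higher and 4.15% lower. The medians, -1.55 and 1.10, came from genes with few counts. Among markers of hepatoblasts and biliary progenitors 6 of 8 listed fell and 1 rose in Hep3B-C, beside 30.4% and 13.2% of all genes. The median log2 fold change was -1.74. Trend-removed 6 fell and 1 rose, where 3568 and 689 of all 15480 genes did. With TMM the calls of EPCAM (-0.95) and SOX9 (-0.87) were lost. In Huh7-C 1 of 8 fell (median 0.12), beside 4.15% of all genes. CD24, a surface glycoprotein, fell in both, from 4904 to 1005 counts in Hep3B-C (log2 -2.97, trend-removed -2.39) and from 4639 to 1677 in Huh7-C (-1.40). SPP1, which encodes osteopontin, rose in Hep3B-C from 3 to 137 counts (4.62, trend-removed 4.95).

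LIN28B and the IGF2BP genes belong to the let-7 circuit of the fetal liver. Let-7 pairs through its seed with sites in their mRNAs, and LIN28B in turn blocks let-7. The sequences are shown because they link 4 of the 10 members. Of the mature human microRNAs in RefSeq, 11 names share the seed GAGGUAG, and 3 are given with the seed in capitals (GRCh38.p14, plus strand, chr9:94175962-94175983, chr9:94178841-94178862 and chr12:62603691-62603712).
let-7a-5p: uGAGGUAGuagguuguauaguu
let-7d-5p: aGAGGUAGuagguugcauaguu
let-7i-5p: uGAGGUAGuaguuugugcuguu
The seed match CTACCTC was searched on the sense strand of 1 GENCODE 29 transcript per gene, and the first match behind the stop codon is given in capitals for each gene.
LIN28B: acccggttgcaaagtCTACCTCa
IGF2BP1: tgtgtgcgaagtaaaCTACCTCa
IGF2BP2: aacacacagaagaagCTACCTCa
IGF2BP3: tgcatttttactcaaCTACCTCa
HMGA2: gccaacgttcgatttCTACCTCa
Behind the stop codon LIN28B, IGF2BP1 and HMGA2, a chromatin protein that is a classical let-7 target, held 4 matches each, and IGF2BP2 and IGF2BP3 held 1 each. No match was found in the transcripts of AFP, GPC3, IGF2, H19 or DLK1. SALL4 held 1 match, but its transcript ended with the coding part, so no stretch behind the stop codon was searched. Of 16031 transcripts 20.8% held at least 1 match. Among transcripts within 10% of the same length, a match was present in 43.0% for IGF2BP1, 29.8% for LIN28B, 23.8% for IGF2BP2 and 27.2% for IGF2BP3. At least as many matches as in the whole transcript, 4 for IGF2BP1 and 5 for LIN28B, were present in 1.09% and 0.0885% of transcripts of like length. Matches are letters and not measured binding.

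LIN28B (chr6:104936616-105083332, plus strand) had 383 and 239 counts in the Hep3B pair (132 and 51.5 CPM) and 362 and 563 in the Huh7 pair (79.8 and 130 CPM). The highest levels were in Hep3B and Huh7-C, which did not differ beyond counting error (1.02-fold, 95% interval 0.892 to 1.16). LIN28B was 2.57-fold lower in Hep3B-C than in Hep3B (2.18 to 3.03), a log2 fold change of -1.36 that was called. Trend-removed it was 0.13, so the direction turned, and with TMM it was -0.76; neither was called. In Huh7-C LIN28B was 1.63-fold higher (1.42 to 1.86), a log2 fold change of 0.70, below the size needed for a call. LIN28B held 93.0% to 97.8% of LIN28 expression per length in all 4 libraries, and LIN28A had 4 to 20 counts.

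IGF2BP1 (chr17:48997412-49055650, plus strand) had the narrowest range of levels among the members. In the Hep3B pair it had 1757 and 2115 counts (607 and 456 CPM) and 2536 and 3522 in the Huh7 pair (559 and 813 CPM). It was not called in either pair, with log2 fold changes of -0.41 and 0.54. The sign in Hep3B-C turned with TMM (0.18) and trend-removed (0.40).

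IGF2BP2 (chr3:185643739-185825056, minus strand) and IGF2BP3 (chr7:23310209-23470467, minus strand) fell in Hep3B-C and were not called in the Huh7 pair. IGF2BP2 had 1162 and 612 counts in the Hep3B pair (log2 fold change -1.60, trend-removed -1.32) and 1392 and 1447 in the Huh7 pair (0.12). IGF2BP3 had 825 and 496 counts in the Hep3B pair (-1.41) and 385 and 400 in the Huh7 pair (0.12, 95% interval of the ratio 0.943 to 1.25). The call of IGF2BP3 was lost trend-removed (-0.28) and with TMM (-0.82), whereas that of IGF2BP2 held on both scales (-1.01 with TMM) but was lost with DESeq2 size factors (-0.92) and with trends removed and a TMM centre (-0.73).

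Summed per length, the family stood at 247 and 114 RPKM (CPM per 1000 bases of gene length) in the Hep3B pair and at 168 and 206 RPKM in the Huh7 pair. As counted, IGF2BP1 made up more of the family in both HCSC cultures. Per length its share was 28.0% in Hep3B and 45.8% in Hep3B-C, and 38.0% in Huh7 and 45.0% in Huh7-C. As shares of family counts these were 46.9% (95% exact interval 45.3 to 48.5) and 65.6% (64.0 to 67.3) in the Hep3B pair, and 58.8% (57.3 to 60.3) and 65.6% (64.3 to 66.9) in the Huh7 pair. The share of IGF2BP3 was 27.7% and 22.6% per length in the Hep3B pair and 12.2% and 10.8% in the Huh7 pair. A share inside a library does not depend on the library total, but it does depend on GC content and length, in which the 3 genes differ (40.5% to 49.6% GC, 3671 to 8769 bases). Trend-removed, the log2 fold changes of IGF2BP1, IGF2BP2 and IGF2BP3 were 0.40, -1.32 and -0.28 in Hep3B-C, but 0.09, 0.06 and 0.01 in Huh7-C, where the shift towards IGF2BP1 was thus hardly seen.

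**Figure D4:**
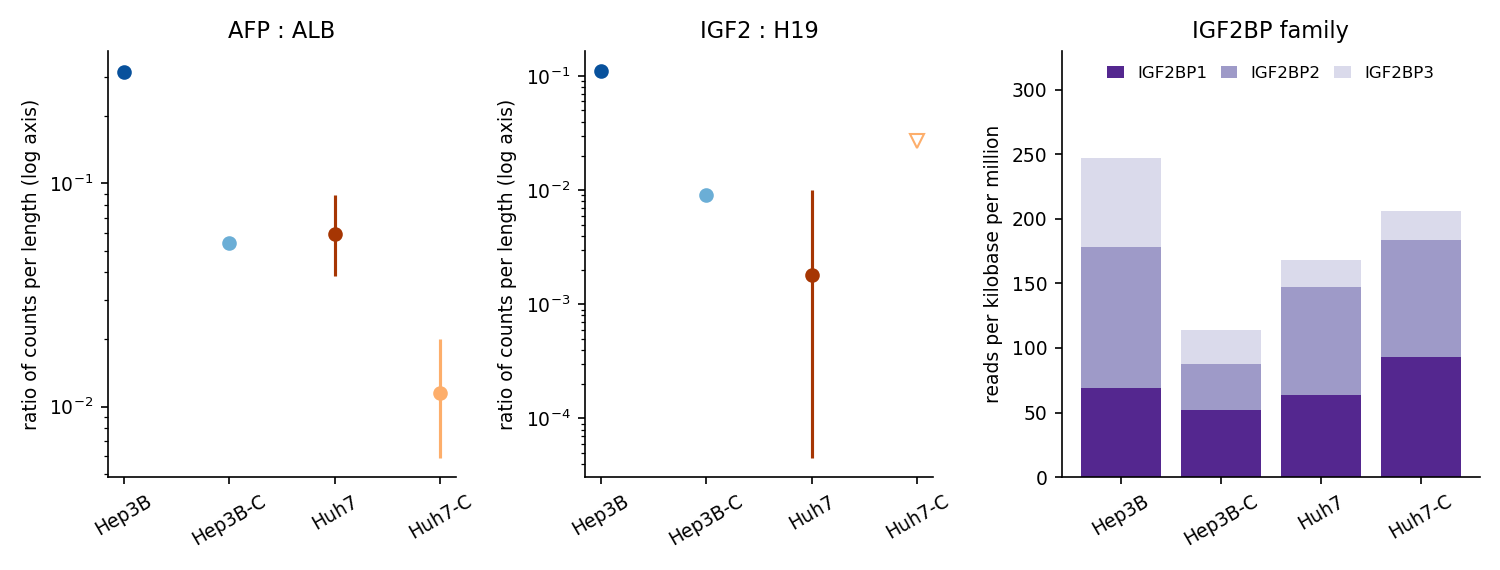
Ratios inside each library. Left and middle, AFP to ALB and IGF2 to H19 per length on log axes with 95% counting intervals, the open triangle being an upper limit where IGF2 had no count. Right, IGF2BP levels per length stacked by gene. AFP falls against ALB in both pairs (0.316 to 0.0541 and 0.0596 to 0.0115), IGF2 falls against H19 in the Hep3B pair, and the family sum is lowest in Hep3B-C at 114 RPKM.

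Other genes of the let-7 circuit were then counted. In Hep3B-C 7 of 13 listed fell and 1 rose (median log2 fold change -1.87), beside 30.4% and 13.2% of all genes as counted. Trend-removed 4 fell and none rose (median -0.91), where 3568 of all 15480 genes fell and 689 rose. In Huh7-C 2 of 13 rose and none fell, with a median of 0.54, beside 4.19% and 4.15% of all genes. Trend-removed 1 rose, beside 438 of all 14807 genes. HMGA2 fell in Hep3B-C from 1232 to 517 counts (log2 -1.93, trend-removed -1.20). HMGA1, its relative, rose from 1614 to 8548 (1.72, but 0.26 trend-removed and then not called). DICER1, the enzyme that cuts microRNA precursors, rose in Huh7-C from 106 to 259 counts (1.35, but 0.82 trend-removed) and fell in Hep3B-C from 564 to 201 (-2.17, but -0.35 trend-removed), and neither call held trend-removed.

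Of the ligand, receptors and substrates of the IGF pathway, 3 of 6 listed genes fell in Hep3B-C and none rose. As counted, 30.4% of all genes fell and 13.2% rose, and the median log2 fold change of the 6 was -1.41. Trend-removed 2 fell, where 3568 of all 15480 genes did. INSR, the insulin receptor, which also binds IGF2, fell from 604 to 206 counts (-2.23, trend-removed -1.32). In Huh7-C 1 of 7 rose and none fell (median 0.63), beside 4.19% and 4.15% of all genes. Trend-removed none rose and IGF1R fell (-1.04), where 438 of all 14807 genes rose and 608 fell. IGF2R, the receptor that clears IGF2 from the cell surface, rose there from 817 to 1764 counts (1.18, trend-removed 0.71 and then not called). Of 13 hepatocyte markers, 5 were higher and 3 lower in Hep3B-C (median 0.54), and 3 and 3 trend-removed (median 0.16), beside 13.2% and 30.4% of all genes as counted. In Huh7-C 1 was higher and 6 were lower (median -0.93), beside 4.19% and 4.15% of all genes as counted. Trend-removed these were 1 and 5 (median -0.79). Over all genes, 689 of 15480 were higher and 3568 lower trend-removed in Hep3B-C, and 438 and 608 of 14807 in Huh7-C. SERPINA1, the main protease inhibitor of the blood, rose in Hep3B-C from 29292 to 124896 counts (1.41, but 0.92 trend-removed and then not called) and fell in Huh7-C from 183846 to 74907 (-1.23). TF, the gene of transferrin, fell in Hep3B-C from 20900 to 15535 counts (-1.11, trend-removed -2.13, but -0.51 with TMM and then not called).

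The 2 pairs were also fitted together in edgeR, with the parental line as a block, to ask whether HCSC differed from HCC by more than the difference varied between lines. With 1 residual degree of freedom the biological coefficient of variation was 0.514. None of the 10 members was called by the quasi-likelihood test, where 0.0257% of 11691 genes were called. At an unadjusted p under 0.05 there were 3 members, beside 3.18% of all genes, IGF2, H19 and SALL4, with edgeR log2 fold changes of -5.40, -1.92 and -2.27. That number was 0 without the block and from 0 to 5 when single libraries were left out. The adjusted p of the edgeR quasi-likelihood test was 0.0962 for IGF2 and 0.999 for H19 and SALL4. DESeq2 called IGF2, with an adjusted p of 0.000455 in its Wald test. IGF2 had 1 and 0 counts in the Huh7 pair. Its fitted change therefore rests on the Hep3B pair, with 1 library per culture, and does not show a change shared by both lines. For DLK1 the fit took the Huh7 pair as 0 counts.

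The genes whose levels followed those of the leading members most closely were sought among 9908 genes with at least 50 counts in a library, by the distance between profiles of log2(CPM + 1) centred over the 4 libraries. The nearest to AFP were SLC43A3, an amino acid transporter relative, H19 and THBS1, the gene of thrombospondin, at distances of 1.02, 1.10 and 1.32. Those nearest to H19 were THBS1 (0.719), AFP (1.10) and MAL2 (1.51), and those nearest to IGF2 were AFP (2.32), TXNIP (2.76) and H19 (2.92). GPC3 had SORBS2 (0.146), FAM101A (0.154) and C4BPB (0.299) nearest. Each had about as many counts in Hep3B as in Hep3B-C and none in the Huh7 pair, where GPC3 had 111 and 109. In Hep3B GPC3 had 2883 counts, beside 100, 96 and 85. With 5 in place of 1 added to each CPM, SOX4, SPINT1 and NES were nearest to GPC3 instead. IGF2 itself stood 8th from AFP and 29th from H19. With 4 libraries, each profile is set mainly by the contrast of the Hep3B with the Huh7 libraries.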

How the data were processed

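Total RNA of 4 cultures was sequenced on an Illumina Genome Analyzer II, 1 library each. The authors discarded adapter sequence and reads of low quality, aligned the rest with NextGENe to an NCBI human build older than GRCh38, and deposited whole-number counts per gene with gene length. Annotation, strand and how multiply mapping reads were handled are not given in the sources used here. Genes were joined by Entrez ID, and rows without a symbol held at most 0.0535% of counts. Groups and parental lines followed the labels. The members, the gene lists and the tests were chosen with earlier results of these data known.

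Levels are CPM, or RPKM where genes are compared. Each pair was tested on the deposited counts with the Audic-Claverie test (both tails, Benjamini-Hochberg over all genes of the pair, FDR at most 0.01, absolute log2 fold change at least 1, with 0.5 added to each count). Ratio intervals are conditional binomial (Clopper-Pearson, 95%). GC content came from 1 GENCODE 29 transcript per gene, the closest in length, and trends were removed by lowess (fraction 0.3) over genes with at least 20 counts in the pair. The joint fit used edgeR 4.0.16 (quasi-likelihood, TMM, filterByExpr, parental line as block), with DESeq2 1.42.0 as an alternative, in R 4.3.3. Libraries of one parental line deviated together from their group means (Pearson 0.534 over 11682 genes), and the block follows the parental line in the labels. Other steps used Python 3.11.15, scipy 1.17.1 and pandas 2.3.3. Steps were tested on simulated data. Named genes were the members, ALB, MEG3, the called gene with the most counts in each direction, list and pair, genes sharing reads with a member, and the 3 genes nearest to AFP, GPC3, IGF2 and H19, and others are marked where named. Not every gene that the rule names is reported here.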

Additional observations from a re-analysis of the deposited data

Results flagged for a closer look

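Of the members, LIN28B, IGF2BP2 and IGF2BP1 moved in opposite directions in the 2 pairs as counted, with 95% intervals of the ratio that excluded 1. For IGF2BP2 in Huh7-C the interval only just did so (1.01 to 1.17), and the FDR of the Audic-Claverie test was 0.069. The difference between the pairs was not tested, since each culture had 1 library. The log2 fold changes of LIN28B were -1.36 (Hep3B pair) and 0.70 (Huh7 pair), which differ by -2.06. For IGF2BP2 the values were -1.60 and 0.12, a difference of -1.73. For IGF2BP1 they were -0.41 and 0.54, a difference of -0.95. With TMM IGF2BP1 stood at 0.18 and 0.50, whereas LIN28B (-0.76 and 0.66) and IGF2BP2 (-1.01 and 0.08) kept opposite signs. With the GC and length trends removed LIN28B stood at 0.13 and 0.49 and IGF2BP1 at 0.40 and 0.09, so that the opposite directions were no longer seen, whereas IGF2BP2 stood at -1.32 and 0.06.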

How the results depend on the processing

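In the Hep3B pair 8 members were called. The number was 5 with DESeq2 size factors, 5 with GC and length trends removed, 4 with these and a TMM centre (chosen after seeing the data) and 2 with an assumed biological coefficient of variation of 0.4, at which IGF2 and SALL4 were called. IGF2BP3 turned to 0.31 with the trends removed and a TMM centre, and LIN28B to 0.13 and, with the TMM centre, 0.73. IGF2BP1, never called, turned to 0.18 (TMM), 0.27 (DESeq2 size factors), 0.77 (length trend removed), 0.40 (both trends removed) and 0.997 (with the TMM centre). The minimum of 10 counts, the exact binomial test and the coefficients of 0.2 and 0.4 leave each log2 fold change unaltered. At these settings only the call could change, in either pair. Of 100 member-by-setting combinations in the Hep3B pair, 74 kept direction and call, 17 lost the call, 1 (GPC3) gained it and 8 turned. Of 89 in the Huh7 pair, 85 kept both and 3 near 0 turned, GPC3 to -0.0012 (TMM) and -0.026 (DESeq2 size factors) and IGF2BP3 to -0.036 (trends removed, TMM centre). H19 lost its call there at a coefficient of 0.4, which left 0 members called. IGF2 was not tested there under a minimum of 10 counts. Over all genes of the Hep3B pair, 2043 were higher and 4708 lower. TMM gave 3348 and 2799, DESeq2 size factors 3549 and 2553, and a coefficient of 0.4 62 and 169. With trends removed 689 were higher and 3568 lower, and with the TMM centre 1931 and 1695. In the Huh7 pair, 620 were higher and 614 lower. A coefficient of 0.2 gave 97 and 161, 0.4 gave 13 and 12, and trends removed with a TMM centre gave 391 and 649.

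In the joint fit of 4 libraries, 1 member (IGF2) was called by DESeq2 and 1 (IGF2) with the trends removed, and 0 without the replicate block. The adjusted p of IGF2 ran from 2.21e-06 to 0.9999 over the settings. Leaving out each library in turn (with no block, so that a lone library is taken to vary like the other group) called 0 members each time. Gene length cancels in the fold of a ratio, so that counts in place of counts per length could not change it. With log2(CPM + 5), 0 of the 3 genes nearest to GPC3 and 1 of the 3 nearest to H19 stayed among the nearest. The cause of these shifts was not tested. Depth limits SALL4 in Hep3B-C (4 counts), AFP in the Huh7 pair (26 and 12) and IGF2 there (1 and 0).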
